A study of Mus musculus with 3 samples.

Results

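A set of 9 B- and T-lymphoid genes, which belong to other blood lineages than megakaryocytes (MKs), the cells that make platelets, serves here as an off-lineage contrast for FLI1 and RUNX1 occupancy. The 9 genes, of 22367 protein-coding genes in the GENCODE M1 annotation of mouse build mm9, were chosen by name: Cd79a, Cd79b, Pax5, Ebf1 and Rag1 for early B cells, with Rag1 also active in T-cell precursors, and Cd3e, Cd3d, Cd4 and Cd8a for T cells. Occupancy was counted in 2 places for each gene, a start window reaching 2 kb to either side of the transcription start site (TSS) and a territory made of the gene body and 20 kb to either side, the latter in bins of 400 bp.

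The cells were mature MKs of wild-type CD1 mice, cultured for 5 days with thrombopoietin from livers that the labels date to embryonic day 15 and the methods to a day earlier. Ly76, Ly6g and Itgam antibodies depleted erythroid, granulocytic and monocytic cells, and albumin sedimentation enriched large cells. The paper reports that few erythroid cells and a small granulocyte and macrophage remainder were left. No lymphoid antibody is named among those used for depletion. ChIP-seq was done with an antibody to FLI1 and an antibody to RUNX1, beside input chromatin that was not precipitated, with 1 library for each and DNA of at least 3 precipitates pooled, so no test between groups was possible and intervals cover counting error only.

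FLI1 is a TF of the ETS family, whose members bind DNA around a GGAA core, and RUNX1 is a TF that binds a TGTGGT-like core. Both are needed for MK maturation, and RUNX1 is also a regulator of B and T lymphocytes. In B-cell precursors EBF1 and PAX5 switch on genes such as Cd79a and Cd79b, while CD3 proteins carry the signal of the T-cell receptor and CD4 and CD8 are its coreceptors. ChIP-seq measures where a TF sits and not whether a gene is transcribed, and in a cell population it cannot tell occupancy in few cells from weak occupancy in all.

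The FLI1 file gave 62946422 reads, the RUNX1 file 3973856 and the input file 21745220 after mitochondrial reads and repeated input positions were removed. The paper's supplement lists many more uniquely mapped RUNX1 tags than this file holds, and also more FLI1 tags than the FLI1 file. Whether the RUNX1 file is the whole library is not known, so every RUNX1 count, rich bin and bound given here is that of this file. A start window held a median of 138 FLI1 reads, 9 RUNX1 reads and 40 input reads over the 21346 genes with at least 10 input reads. FLI1 was also counted at 8 platelet receptor and granule genes taken as MK markers, which are part of the 14 platelet genes below. Occupancy does not measure cell identity, so these counts do not test the MK label. All 8 had a FLI1-rich bin within 2 kb of the TSS, where 37.4% of all genes had one. At or above 2-fold over input were 7 of 8, where 25.7% of all genes were. Of the whole list of 14, 12 had such a bin and 9 reached 2-fold.

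In the start windows reaching 2 kb to either side, none of the 9 lymphoid genes stood above input by 2-fold in either ChIP library. The median ratio of FLI1 to input was 0.897 for the 9 genes and 1.28 for all genes, and that of RUNX1 was 0.742 and 1.19. By FLI1, 0 of 9 genes reached 2-fold where 25.7% of all genes did. By RUNX1, 0 of 9 reached it where 16.8% of all genes did. The highest FLI1 ratio was at Ebf1 and the lowest at Cd8a.

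**Figure D1:**
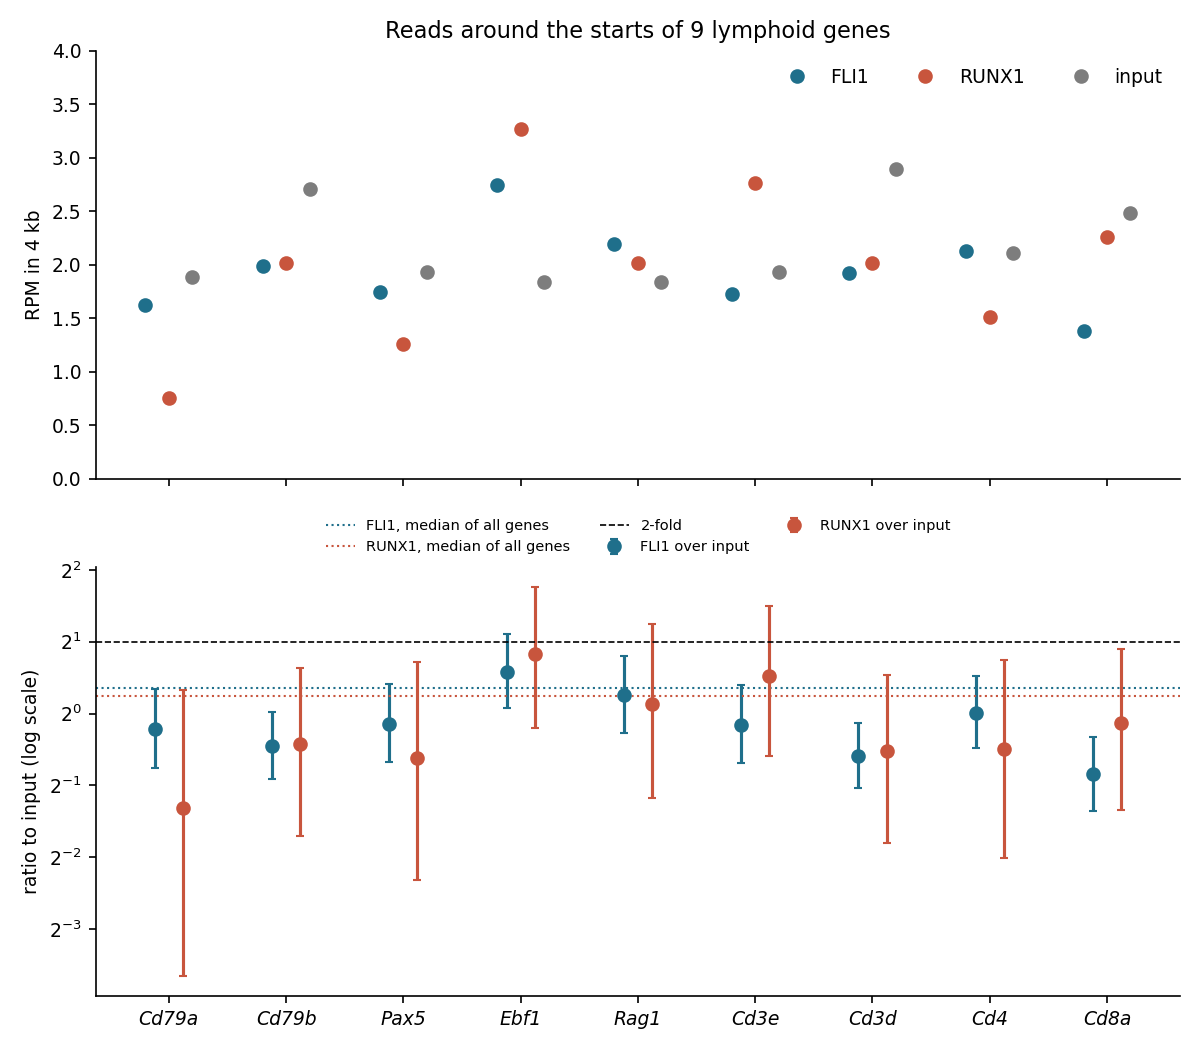
RPM, the reads scaled to a library of 1000000, within 2 kb of each start in the 3 libraries (upper panel) and ratios of FLI1 and RUNX1 to input with exact 95% intervals on a log axis (lower panel). All 18 ratios lie under the dashed 2-fold line, and Ebf1 has the highest of both kinds.

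Cd79a and Cd79b encode the signalling subunits of the B-cell receptor. At Cd79a, 102 FLI1, 3 RUNX1 and 41 input reads fell in the start window, or 1.62, 0.755 and 1.89 RPM (reads scaled to a library of 1000000 reads). Both ChIP libraries were thus below input, with an FLI1 ratio of 0.859 (95% interval 0.593 to 1.27) and a RUNX1 ratio of 0.400 (0.0793 to 1.255). The FLI1 bin with the highest fold within 2 kb of the Cd79a TSS held 14 reads, 1.02-fold over expectation. In B cells this promoter is a textbook target of EBF1, PAX5, RUNX1 and ETS factors, and it is shown here as a start that the libraries left at background, 250 bases on the plus strand of mm9 at chr7:25682150-25682399, ending next to the TSS.
Cd79a promoter: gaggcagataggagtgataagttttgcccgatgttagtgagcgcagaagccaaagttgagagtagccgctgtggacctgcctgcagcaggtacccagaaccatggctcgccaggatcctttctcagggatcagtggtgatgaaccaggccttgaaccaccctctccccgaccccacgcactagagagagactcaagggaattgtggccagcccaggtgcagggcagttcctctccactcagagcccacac
It has 0 matches to the ETS letters searched (CCGGAAG or CCGGAAA or CAGGAAG or CAGGAAA, both strands) and 0 to the RUNX letters (TGTGGT or TGCGGT, both strands). No ETS sequence contains a RUNX one. The printed Cd79a bases do hold the shorter GGAA and TGTGG, which were not counted.

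Cd79b gave 125 FLI1, 8 RUNX1 and 59 input reads. The input was high there, above that of 92.6% of genes, and FLI1 at 1.99 RPM lay below it at 2.71. The FLI1 ratio was 0.732 (0.533 to 1.02) and the RUNX1 ratio 0.742 (0.306 to 1.56).

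Pax5 and Ebf1 encode TFs that commit cells to the B lineage. Pax5 held 110 FLI1, 5 RUNX1 and 42 input reads, with ratios of 0.905 (0.629 to 1.32) and 0.651 (0.201 to 1.64). Its 2 further annotated starts, 1028 and 1038 bp away, each had 26 FLI1 reads within 500 bp against 12 and 11 of input. At the 3 starts the FLI1 ratio within 500 bp thus ran from 0.748 to 1.27.

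Ebf1 had the highest ratios of the 9. It held 173 FLI1, 13 RUNX1 and 40 input reads, or 2.75, 3.27 and 1.84 RPM, so that both ChIP libraries exceeded the input, as they also did at Rag1. The FLI1 ratio was 1.49 (1.05 to 2.16), higher than in 59.1% of genes, and the RUNX1 ratio 1.78 (0.873 to 3.39). Only the FLI1 interval excluded 1, and it is the 1 interval of 9 that lies above 1. Ebf1 also had the 1 FLI1-rich bin found at the 9 starts, meaning a 400-bp bin with at least 6 reads and 3-fold over the highest of the genome-wide mean and the nearby input. Of all genes, 37.4% had such a bin. The bin was centred 0.219 kb before the TSS and held 49 FLI1, 2 RUNX1 and 5 input reads, 3.39-fold over expectation, close to the limit. Of 27527 FLI1-rich bins in all territories, 17.7% had a lower fold. The FLI1 summit lay 0.106 kb before the TSS, inside the bases at chr11:44430569-44430818 (mm9, plus strand).
Ebf1 promoter: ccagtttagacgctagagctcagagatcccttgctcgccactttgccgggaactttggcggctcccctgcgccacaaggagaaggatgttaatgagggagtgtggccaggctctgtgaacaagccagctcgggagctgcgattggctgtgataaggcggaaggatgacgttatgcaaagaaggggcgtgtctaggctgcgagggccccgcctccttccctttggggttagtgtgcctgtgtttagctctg
These bases also had 0 matches to the ETS and 0 to the RUNX letters searched. They do hold the shorter GGAA and TGTGG, which were not counted. Nearer to the TSS, within 500 bp, Ebf1 held 70 FLI1, 6 RUNX1 and 12 input reads, or 1.11, 1.51 and 0.552 RPM, an FLI1 ratio of 2.02, so that Ebf1 did pass 2-fold in this narrower window. Around a second annotated Ebf1 start, 862 bp further on, 28 FLI1 reads and 1 input read lay within 500 bp, and with 1 input read no firm ratio can be given.

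Rag1 encodes a subunit of the recombinase that cuts antigen receptor genes. It held 138 FLI1, 8 RUNX1 and 40 input reads, with ratios of 1.19 (0.833 to 1.74) and 1.09 (0.442 to 2.37). The Rag1 window is shared almost whole with that of B230118H07Rik, whose start lies 0.031 kb away, so these reads belong to both genes. Rag1 was the only member with matches to both motifs in the promoter window (250 bases before to 50 after the TSS), 1 ETS and 2 RUNX. The RUNX pair lies about 103 bp before the TSS at chr2:101489746-101489775 and is printed on the minus strand, which is the strand of the gene, with the matches in capitals.
Rag1 RUNX pair: tcatcTGTGGTtagccgtcTGTGGTgtggg
Within 500 bp of the TSS lay 4 RUNX1 and 12 input reads, or 1.01 and 0.552 RPM, a difference that rests on 4 reads and was not seen over the whole window.

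Cd3e and Cd3d encode subunits of the CD3 complex. Cd3e held 109 FLI1, 11 RUNX1 and 42 input reads, with ratios of 0.897 (0.623 to 1.31) and 1.43 (0.665 to 2.83). Cd3d held 121 FLI1, 8 RUNX1 and 63 input reads, with ratios of 0.663 (0.485 to 0.915) and 0.695 (0.288 to 1.45). Its FLI1 interval lies below 1, in a window where the input exceeded that of 95.8% of genes. The start of Cd3g, another CD3 gene, lies 1.36 kb before that of Cd3d, so the windows overlap.

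Cd4 and Cd8a encode the coreceptors. Cd4 held 134 FLI1, 6 RUNX1 and 46 input reads, with ratios of 1.01 (0.715 to 1.44) and 0.714 (0.249 to 1.68), so FLI1 stood at the input level. Cd8a held 87 FLI1, 9 RUNX1 and 54 input reads, with ratios of 0.557 (0.392 to 0.797) and 0.912 (0.396 to 1.86). Its FLI1 ratio was the lowest of the 9, with 4.62% of genes lower, and its input was above that of 86.0% of genes. The 3 members with the lowest FLI1 ratios, Cd8a, Cd3d and Cd79b, were also the 3 with the highest input, and the part of the input in these ratios was not tested. In RPM, FLI1 itself placed these 3 above 12.6%, 40.4% and 43.2% of genes.

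The upper bounds show how far the depth reaches. For FLI1, 8 of 9 upper bounds lay under 2-fold and the other, at Ebf1, was 2.16. For RUNX1, 6 of 9 did, and a 2-fold excess of RUNX1 at Ebf1, Rag1 or Cd3e could not be told from the input at this depth. FLI1 and RUNX1 did not differ beyond counting error at any of the 9 starts, where the ratio of FLI1 to RUNX1 ran from 0.610 (0.307 to 1.38) at Cd8a to 2.15 (0.714 to 10.6) at Cd79a. Neighbours in the order of FLI1 ratios had overlapping intervals throughout, while those of Cd8a, Cd3d and Cd79b did not overlap that of Ebf1.

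Most other lymphoid genes of a wider list were also under 2-fold at the TSS. Of 15 further B-lineage genes, 1 reached 2-fold by FLI1 and the median ratio was 1.08. The 2 highest were Vpreb1, which encodes a part of the surrogate light chain of the pre-B-cell receptor, and Cd37, a tetraspanin. Vpreb1 held 482 FLI1, 17 RUNX1 and 49 input reads, a ratio of 3.40 (2.53 to 4.66), and had 3 FLI1-rich bins and 1 RUNX1-rich bin at the start. Neighbouring starts were looked up only for the members, so whether the Vpreb1 window is shared with another gene was not examined. Cd37 had a ratio of 1.82 (1.39 to 2.43). The lowest were Cd22, at 0.605 (0.445 to 0.827), and Spib, at 0.589 (0.433 to 0.807). Of 16 further T-lineage genes 0 reached 2-fold and the median was 0.761. Lef1 and Bcl11b, TFs of early T cells, were highest, at 1.66 (1.15 to 2.46) and 1.58 (0.909 to 2.90). Cd3g and Cd6 were lowest, at 0.585 (0.436 to 0.789) and 0.454 (0.329 to 0.629). Cd6 nonetheless had a RUNX1-rich bin at its start, with 13 RUNX1 reads in the window. A FLI1-rich bin at the TSS was present at 4 of 15 B-lineage and 1 of 16 T-lineage genes.

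Platelet genes, measured in the same way, lay higher by FLI1. Of 14 of them, 9 reached 2-fold by FLI1, 12 had a FLI1-rich bin at the TSS and the median ratio was 2.42. Itga2b and Pf4 were highest, at 5.50 (4.06 to 7.64) and 4.25 (3.21 to 5.73), and Ppbp and Vwf lowest, at 1.27 (0.921 to 1.78) and 1.24 (0.864 to 1.82). The Ebf1 ratio of 1.49 thus exceeded those of Ppbp and Vwf, with overlapping intervals. The paper's supplement lists FLI1 binding close to the RefSeq starts of Vwf and Tbxas1, while neither had a FLI1-rich bin at the start used here. A start without a call by this measure may thus still have a peak in the paper, and the difference was not examined. Among other blood lineages the median was 1.09 for 9 erythroid genes, from Epor at 2.39 (1.75 to 3.33) down to Slc4a1 at 0.779 (0.539 to 1.14) and Ank1 at 0.744 (0.503 to 1.12). It was 1.54 for 10 granulocyte and monocyte genes, from Mpo at 2.45 (1.69 to 3.67) and S100a9 at 1.97 (1.32 to 3.03) down to Elane at 0.833 (0.596 to 1.18) and Prtn3 at 0.797 (0.571 to 1.13). A FLI1-rich bin at the TSS was present at 1 of 9 erythroid and 5 of 10 granulocyte and monocyte genes. Of all genes, 37.4% had one. In each of these 2 lists 1 gene reached 2-fold. By RUNX1 few genes of any list did, where 16.8% of all genes did. They were 2 of 14 platelet genes with a median ratio of 1.58, 1 of 15 B-lineage genes with 0.893 and 0 of 16 T-lineage genes with 0.808. Of erythroid genes it was 0 of 9 with a median of 1.31, and of granulocyte and monocyte genes 1 of 10 with 0.794.

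**Figure D2:**
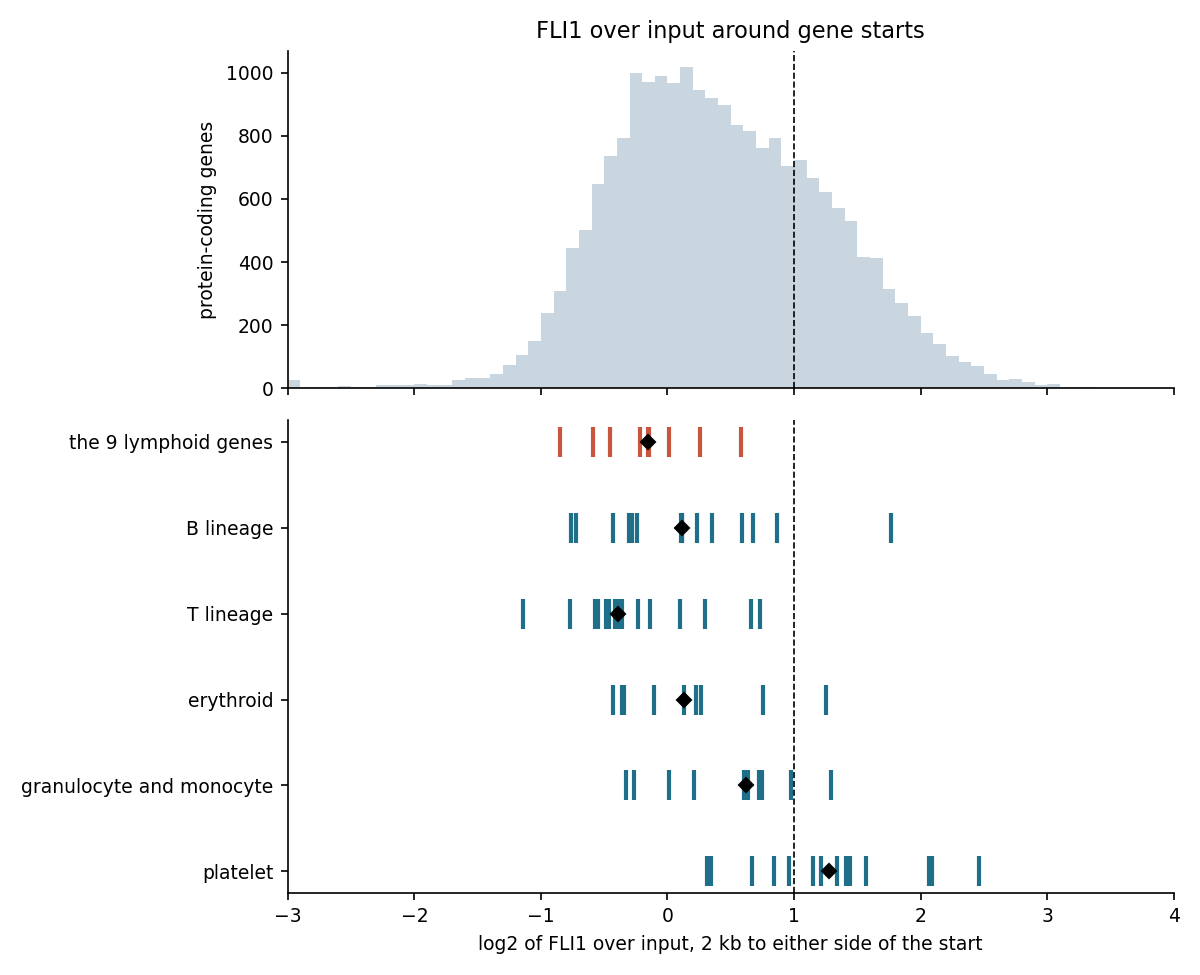
FLI1 over input at the start on a log2 axis, as a histogram over 21346 protein-coding genes (upper panel, genes below the axis counted in the first bar) and as 1 tick per gene for each list (lower panel, diamonds are medians, dashed line is 2-fold). The 9 lymphoid genes, with a median ratio of 0.897, all lie left of the dashed line, and 9 of 14 platelet genes lie right of it.

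Most of the 9 promoters had a low CpG content, which the choice of genes did not use and which the other blood lists had too. The ratio of observed to expected CpG in the 300-bp promoter window had a median of 0.284 for the 9 and 0.534 for all genes, and 7 of 9 were under 0.5 where 47.6% of all genes were. Cd79b had no CpG at all in this window, Cd4 lay at the limit with 0.501, and Ebf1 was highest at 0.515. Over all genes the FLI1 ratio differed with this class. Its median was 0.962 for CpG-poor promoters, of which 7.58% reached 2-fold, and 1.76 for the others, of which 40.9% did. The FLI1 values of the 7 CpG-poor members ran from 0.557 at Cd8a to 1.19 at Rag1, and 6 of the 7 lay below the median of their class, with Rag1 above it. Ebf1 and Cd4, in the other class, also lay below its median. Platelet promoters were as poor in CpG, with 12 of 14 under 0.5 and a median of 0.194, and had the higher FLI1 ratios given above. Under 0.5 were also 13 of 15 B-lineage, 12 of 16 T-lineage, 8 of 9 erythroid and 9 of 10 granulocyte and monocyte promoters. The median input in the start window was 1.84 RPM in both CpG classes.

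**Figure D3:**
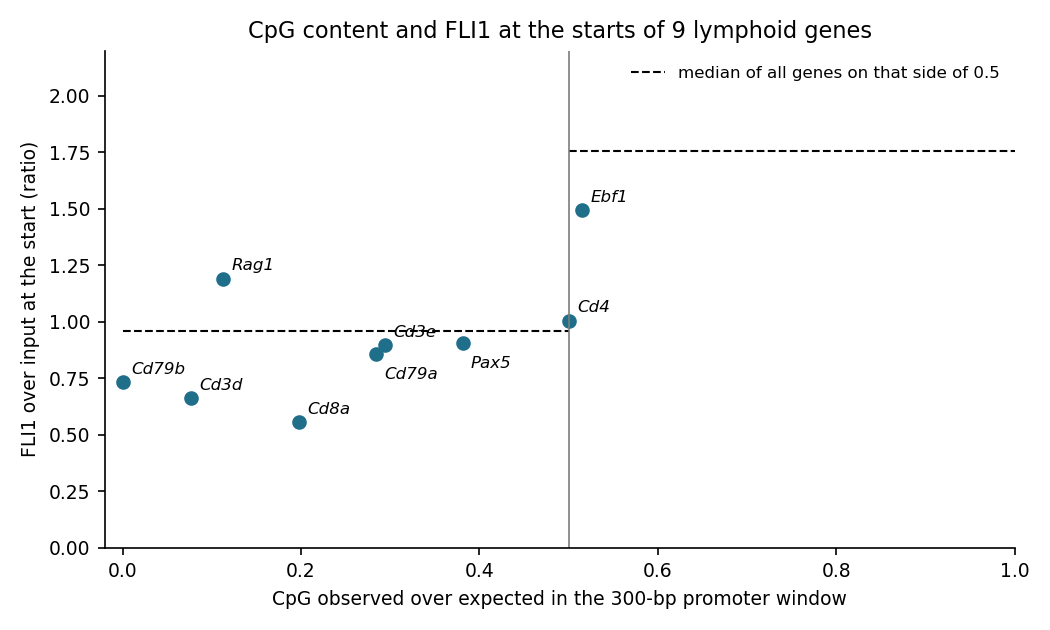
FLI1 over input at the start of each of the 9 genes against the ratio of observed to expected CpG in its promoter window, with dashed lines at the median of all genes under 0.5 (0.962) and at or above 0.5 (1.76). Of the 7 genes under 0.5, 6 lie below the lower line and Rag1 above it, and Ebf1 and Cd4, just past 0.5, lie below the upper line.

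Some of the 9 promoters held motif matches. An ETS match was in the window of 4 of 9 (Rag1, Cd3e, Cd3d and Cd4), where 31.3% of all promoter windows had one, and a RUNX match in 3 of 9 (Cd79b, Rag1 and Cd8a), where 21.55% had one. Ebf1, with the highest FLI1 ratio, had neither of the searched matches. Its printed bases hold the shorter GGAA and TGTGG, which were not counted.

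The territories, which include the starts, went both ways by FLI1. The median ratio of FLI1 to input over the 9 was 1.00, against 0.976 for all genes, but 4 intervals lay above 1 (Cd79a, Ebf1, Rag1 and Cd3d), 4 below it (Cd79b, Pax5, Cd4 and Cd8a), and that of Cd3e held it. A FLI1-rich bin lay in 5 of 9 territories, those of Cd79a, Ebf1, Rag1, Cd3e and Cd3d, where 63.8% of all genes had one. Of the 2427 different bins in the 9 territories, 20 were FLI1-rich, or 0.824%, and the share over the territories of all genes was 0.783%. RUNX1-rich bins lay in 3 of 9 territories, those of Ebf1, Cd3e and Cd3d, where 24.4% of all genes had one. The territories of Cd3e and Cd3d share bins. They numbered 5, or 0.206%, where 0.128% of bins over all territories were RUNX1-rich. Of the 5, 3 were FLI1-rich as well, where 34.8% of all RUNX1-rich bins were. The FLI1 share was thus near that of all gene territories. The RUNX1 share rests on 5 bins, of which 2 adjoin each other at the 3′ end of Cd3d and 1 lies at the start of Ube4a. No excess of RUNX1 is read from so few.

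**Figure D4:**
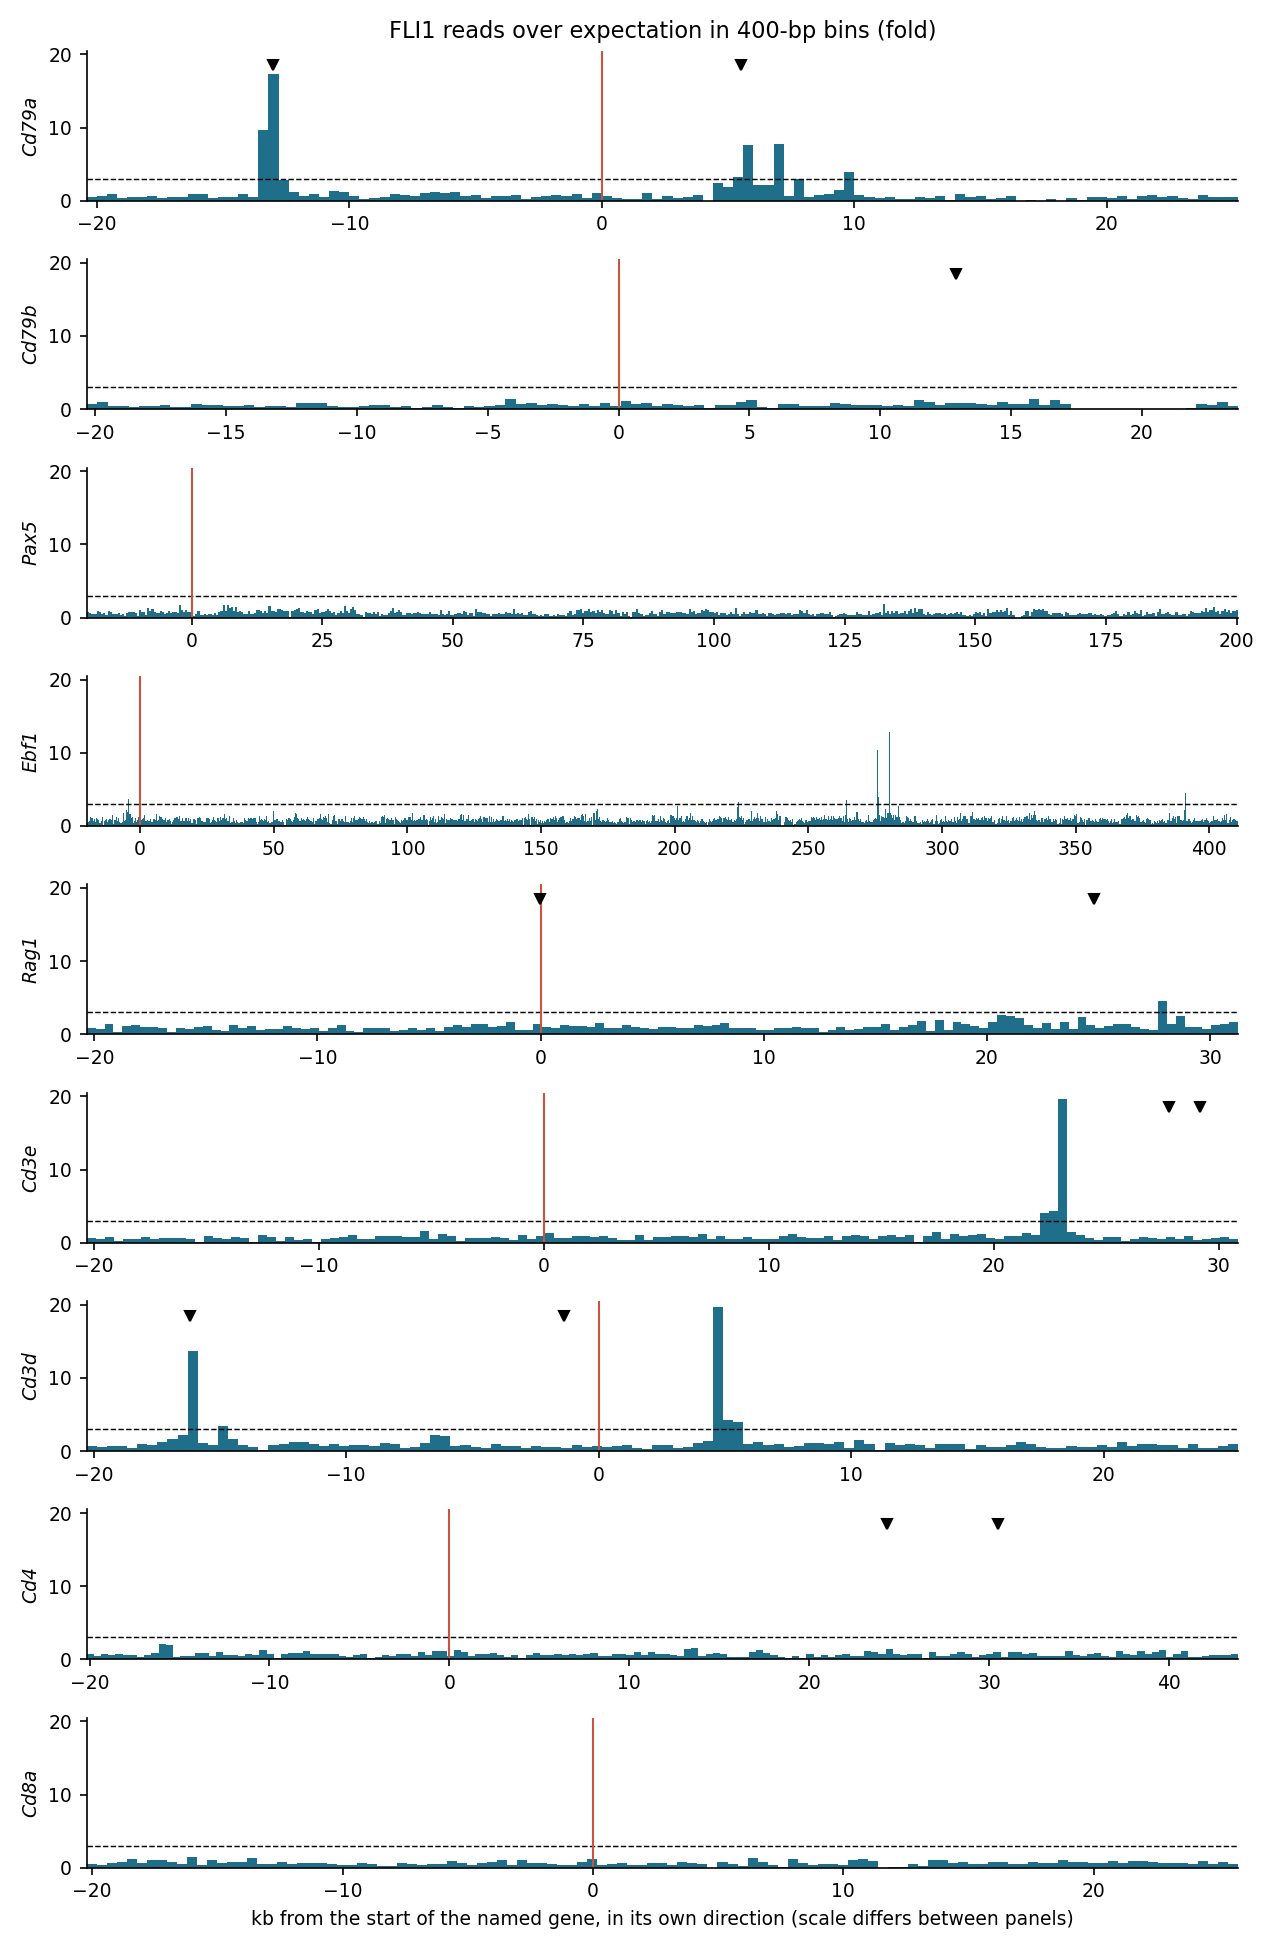
FLI1 reads over expectation in each 400-bp bin of the 9 territories, by distance from the start of the named gene (red line), with the starts of neighbouring genes as triangles and the 3-fold limit dashed. The bins past the limit around Cd79a, Rag1 and Ube4a (Cd3d panel) lie within 2 kb of an annotated start of a neighbour. Triangles mark 1 start per gene, so the bins 9.8 kb from Cd79a and 27.9 kb from Rag1 lie at inner starts without a triangle. Other bins past the limit sit at the 3′ end of Cd3d (also in the Cd3e territory). At Ebf1 they sit at the start, in introns and on either side of the gene. Cd79b, Pax5, Cd4 and Cd8a have none.

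Pax5, Cd79b, Cd4 and Cd8a had 0 rich bins of either kind. Their highest FLI1 bins held 27, 25, 36 and 20 reads, where the genome-wide mean was 10.6 reads per bin. Over 220 kb the territory of Pax5 held 5389 FLI1 reads at a ratio of 0.703 (0.670 to 0.736), and no bin of its 551 exceeded 1.79-fold. The ratio was 0.644 (0.580 to 0.715) for Cd79b, 0.806 (0.741 to 0.877) for Cd4 and 0.758 (0.683 to 0.842) for Cd8a, with every interval below 1. RUNX proteins are known to bind a silencer in the first intron of Cd4 in T cells. Here no Cd4 bin held more than 5 RUNX1 reads, and the one with the highest RUNX1 fold, 5.10, lay 16.8 kb before the TSS. The mean was 0.706 RUNX1 reads per bin and a call needs 6, so the lack of a call does not show that RUNX1 was absent.

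Around Cd79a all 6 FLI1-rich bins lay at starts of its neighbours. Rps19, a ribosomal protein gene, starts 13.01 kb before Cd79a, and the bin over its TSS held 301 FLI1, 4 RUNX1 and 6 input reads, 17.3-fold over expectation, with a further 166 FLI1 reads in the bin beside it. Arhgef1, which encodes a guanine nucleotide exchange factor, starts 5.53 kb after the TSS of Cd79a, and 4 rich bins with 48 to 142 FLI1 reads lay within 2 kb of one of its annotated starts. These lift the Cd79a territory to a ratio of 1.29 (1.17 to 1.41), above 90.8% of genes, while its own start stood at 0.859. RUNX1 over the same territory was below input, at 0.755 (0.587 to 0.960).

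The Rag1 territory had an FLI1 ratio of 1.20 (1.08 to 1.32) and held 1 FLI1-rich bin, with 48 FLI1, 1 RUNX1 and 4 input reads at 4.52-fold. It was 27.9 kb beyond the Rag1 TSS and 597 bp from an inner start of B230118H07Rik. Rag2, the partner of Rag1, starts 24.8 kb beyond the Rag1 TSS and had 153 FLI1, 12 RUNX1 and 33 input reads, ratios of 1.60 (1.09 to 2.41) and 1.99, with 0 FLI1-rich bins at its start.

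The bin with the most FLI1 reads and the highest fold in the 9 territories lay at the 3′ end of Cd3d. A run of 3 adjacent bins was FLI1-rich, and the first, centred 4.72 kb after the Cd3d TSS, held 306 FLI1, 16 RUNX1 and 6 input reads. FLI1 was 19.6-fold and RUNX1 16.3-fold over expectation. Of all FLI1-rich bins 99.3% had a lower fold, and of all 4492 RUNX1-rich bins 99.4% did. The next bin held 69 FLI1 and 10 RUNX1 reads and was rich in both. The one after it held 58 and 4 and was called for FLI1 only. Its RUNX1 reads were 4.38-fold over expectation, past the 3-fold limit, but fewer than the 6 that a call needs. Against the 6 input reads of the first bin the ratios were 17.6 (8.0 to 48.4) for FLI1 and 14.6 (5.42 to 45.5) for RUNX1. Both strands contributed, with 158 plus and 148 minus FLI1 reads and 9 plus and 7 minus RUNX1 reads.

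This element has its FLI1 summit in the annotated last exon of Cd3d, in the 3′ untranslated part, and its strongest bin is centred 23.1 kb after the TSS of Cd3e, so it is counted in the territories of both genes. An enhancer downstream of Cd3d is known from T cells. The cells here are labelled as MKs, and their T-cell content was not measured. The RUNX1 summit was 15 bp from the FLI1 summit. An ETS match lay 1 bp from the FLI1 summit and a further one 71 bp away, and RUNX matches lay 92 and 111 bp away. An ETS match within 50 bp of a point is not rare, as 6.81% of 101-bp windows of the genome hold one. A RUNX match, which here lay farther off, is in 21.4% of 300-bp windows. The ETS match at the summit and the nearer RUNX match are printed as 28 bases each on the plus strand of mm9, at chr9:44794657-44794684 and chr9:44794748-44794775, with the match in capitals.
Cd3d element ETS site: aaccctgtgggTTTCCTGtgggcagggt
Cd3d element RUNX site: tttgctgccttACCACAgcccaaagcag
Both matches read on the minus strand as CAGGAAA and TGTGGT.

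The Cd3d start itself, 4.8 kb from this summit, had no bin above 0.888-fold. Over the Cd3d territory the ratio of FLI1 was 1.32 (1.20 to 1.45), above the interval at its start. Over that of Cd3e it was 1.00 (0.917 to 1.10), within the interval at its start. The other 2 FLI1-rich bins of the Cd3d territory were at Ube4a, a ubiquitin ligase gene that starts 16.2 kb before Cd3d, and the stronger held 198 FLI1, 6 RUNX1 and 4 input reads, 13.7-fold by FLI1 and 6.57-fold by RUNX1.

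Ebf1 had 8 FLI1-rich bins in its 431-kb territory, or 0.743% of its 1077 bins, and none was within 2 kb of the start of another gene. Over the whole of this territory FLI1 was close to the input, at 1.03 (1.00 to 1.07). Beside the bin at its TSS there was 1 at 4.22 kb before the TSS with 54 FLI1 and 0 input reads, 5 in introns, and 1 just past the 3′ end of the gene, 391 kb from the TSS, with 52. The 2 with the most reads were intronic. The bin centred 280 kb after the TSS held 271 FLI1, 2 RUNX1 and 9 input reads, 12.8-fold by FLI1, and 95.2% of FLI1-rich bins had a lower fold. The bin 276 kb after the TSS held 151 FLI1, 1 RUNX1 and 4 input reads, 10.4-fold, and the bin adjoining it 60 FLI1 reads. The other intronic bins, at 224 and 264 kb, held 59 and 48 FLI1 reads, 3.22-fold and 3.55-fold.

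The elements of Ebf1 at these 2 bins differ in sequence. Each is printed as 200 bases centred on the FLI1 summit, on the plus strand of mm9, which is the strand of Ebf1, at chr11:44710852-44711051 and chr11:44706533-44706732, with ETS and RUNX matches in capitals.
Ebf1 element at 280 kb: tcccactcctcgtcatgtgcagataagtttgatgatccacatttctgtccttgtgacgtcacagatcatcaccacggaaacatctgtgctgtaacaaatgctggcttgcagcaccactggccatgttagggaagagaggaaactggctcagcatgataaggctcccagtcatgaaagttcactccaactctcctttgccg
Ebf1 element at 276 kb: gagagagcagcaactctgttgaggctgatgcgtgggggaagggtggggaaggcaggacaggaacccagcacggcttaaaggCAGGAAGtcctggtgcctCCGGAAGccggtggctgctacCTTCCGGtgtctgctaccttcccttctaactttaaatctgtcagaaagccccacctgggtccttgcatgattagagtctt
Their order depends on the measure, since FLI1 over the input reads of the bin was 10.4 (5.40 to 23.0) at 280 kb and 13.04 (4.99 to 48.5) at 276 kb, with overlapping intervals. The element at 276 kb had 3 ETS matches within 50 bp of the summit, the nearest 2 bp away. The element at 280 kb had none in these 200 bases, where 13.3% of 200-bp windows of the genome hold one. Its nearest ETS match was 143 bp from the summit. Its printed bases do hold the shorter GGAA core, which was not counted, so it cannot be said to lack ETS sites. Over all 20 FLI1-rich bins of the 9 territories 12 held an ETS match, against 63.0% of all FLI1-rich bins and 25.7% of all bins of the same length. A RUNX match was in 6 of the 20, against 37.6% and 28.95%.

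**Figure D5:**
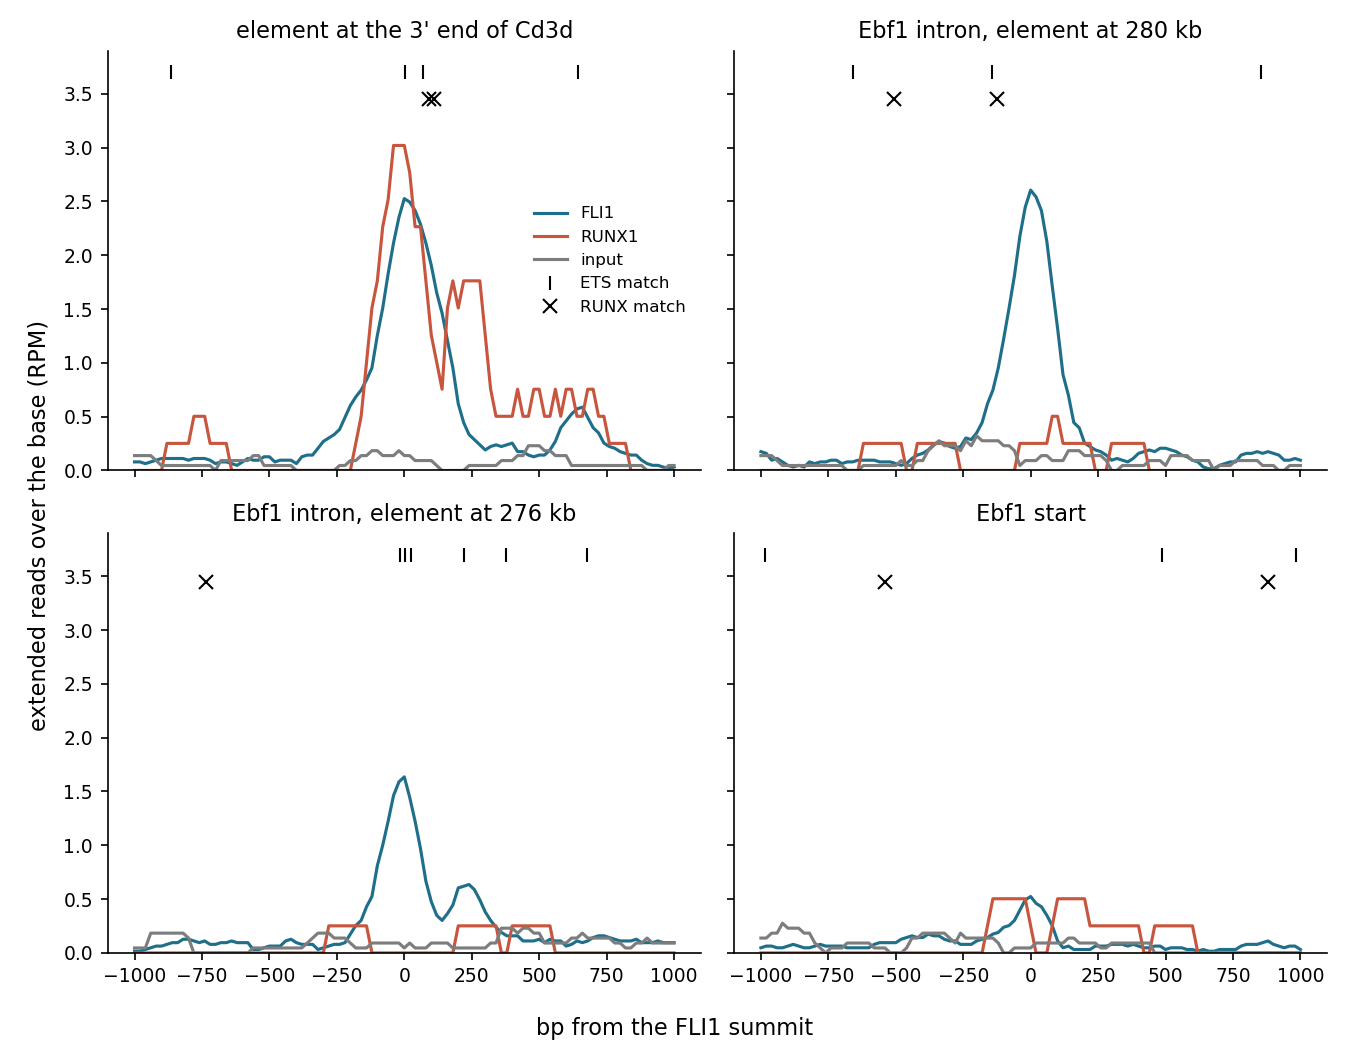
Reads extended to the fragment length over each base in RPM, by distance from the FLI1 summit at the element at the 3′ end of Cd3d, the 280-kb and 276-kb elements of the Ebf1 intron and the Ebf1 start, with ETS and RUNX matches marked above. FLI1 peaks at all 4. RUNX1 peaks at the Cd3d element, 15 bp from the FLI1 summit, and has no more than 2 overlapping reads at the other 3.

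The balance of FLI1 and RUNX1 was lower in the Cd3d bin than in the 2 Ebf1 bins with the most FLI1 reads. In the Cd3d bin FLI1 had 4.86 and RUNX1 4.03 RPM, a ratio of 1.21 (0.732 to 2.14). In the Ebf1 bin at 280 kb they had 4.31 and 0.503, a ratio of 8.55 (2.35 to 71.0), and these intervals do not overlap. At 276 kb the ratio was 9.53 (1.69 to 379), and at the Ebf1 start 1.55 (0.406 to 13.1), and both intervals overlap that of the Cd3d bin. All these bins were picked for their high counts, so the ratios describe them and are no test.

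RUNX1 alone was rich in 2 bins, both of Ebf1, at 209 kb inside the gene and at 403 kb, past its 3′ end. The first held 6 RUNX1 reads, 3 on each strand, with 11 FLI1 and 1 input reads, and the second 7 RUNX1 reads, 4 plus and 3 minus, with 9 FLI1 and 5 input reads. FLI1 was near its genome-wide mean of 10.6 reads per bin in both. These are 6 and 7 reads near the lower limit of 6, and at 8 or more reads only the 2 bins of the Cd3d element were RUNX1-rich.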

How the data were processed

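Reads were mapped to mm9 with Bowtie by the authors, who kept uniquely mapped, non-redundant reads. The deposited files give read positions and strands, not a signal or normalized unit, and every count was made from them. The input file still repeated 3.24% of positions, which were counted once here. The submitters' processing notes also name MACS 1.4 and SICER 1.1, and peak calls were not used here. The methods describe sonicated ChIP and MNase-digested input, while the labels mention sonication, and the 2 sources differ on the library kit, so input fragments may differ from ChIP fragments. Reads were 50 bp long in the FLI1 and RUNX1 files and 34 bp in the input file. What this difference does to the ratios was not tested.

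Reads were moved by 63, 78 and 79 bp (FLI1, RUNX1, input) to the fragment centre. Expected reads per bin were the highest of the genome-wide mean and the depth-scaled input over 3, 13 and 25 bins. Ratios of depth-scaled reads have exact (Clopper-Pearson, conditional) 95% intervals (Python 3.11.15, NumPy 2.4.6, SciPy 1.17.1, pysam 0.24.0). PCR reads are not independent molecules, so intervals cover counting error only. Counting was tested on simulated reads. Promoters and motifs were read from the mm9 genome with GENCODE M1. The members and lists were chosen with earlier results of these data known. Members, genes nearest to rich bins and the 2 highest and 2 lowest of each list are named, except 1 gene that is not reported here. Of the listed names, 2 were unmatched.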

Additional observations from a re-analysis of the deposited data

How the results depend on the processing

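Of 60 alternative values 43 stayed near the reported value and 17 did not. Near means within 1.5 times a count or, for a median, within the counting interval of the gene at the median. That gene was Cd3e for FLI1 and Cd79b for RUNX1, so these wide intervals are those of 1 gene and not of the median. The medians at the starts stayed within these intervals of 1 gene under every alternative run, but their side of 1 did not hold. The FLI1 median went from 0.897 to 1.11 against the flanks 10 to 20 kb away in the same library, and the RUNX1 median from 0.742 to 1.05 against these flanks and 1.03 in start windows reaching 5 kb. The territory median of FLI1 over input fell to 0.847 with territories reaching 10 kb. With the RUNX1 library as the reference, 1 member reached 2-fold by FLI1, which was Cd79a with 3 RUNX1 reads. The 1 FLI1-rich start, at Ebf1, was lost (0 left) with FLI1 thinned to the RUNX1 depth, with bins of 800 bp and at 5-fold. Members with a FLI1-rich bin in the territory went from 5 to 3 with territories reaching 10 kb. The 20 FLI1-rich bins became 8 after thinning, 40 and 7 in bins of 200 and 800 bp, 38 with the genome-wide mean alone, and 44 and 8 at 2-fold and 5-fold. The 5 RUNX1-rich bins became 2 at 8 or more reads, 3 and 14 in bins of 200 and 800 bp, 3 with territories reaching 10 kb and 27 with plus-strand reads alone and at least 3 of them, an alternative chosen after seeing the data. The number of RUNX1-rich bins thus depends on these settings. The cause was not tested, except that thinning, stricter limits and shorter territories leave fewer reads or bins by construction. No paired analysis was possible because each antibody has 1 library, and no library could be left out. The depth of the RUNX1 file, which may not hold the whole library, limits what can be seen of single bins, where the mean was 0.706 reads.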
